A study of Mus musculus with 167 samples.

Results

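MicroRNAs were compared between the livers of 6-month-old mice carrying a Q140 *Htt* allele and those of mice carrying a Q20 allele. The comparison used 16 small RNA libraries of the 167 in the series, 8 per allele, from 4 females and 4 males each. All 16 mice were heterozygous, with the strain labelled C57BL/6 and mothers that were C57BL/6J: one *Htt* allele was wild type and the other carried a knocked-in human *HTT* exon 1, with about 140 CAG repeats in the *Htt* tm1Mfc line or about 20 in the *Htt* tm2Mem line. Q20 served as the control because its repeat is in the range of unaffected people. The alleles came from separate lines, so the effect of the repeat and that of the line cannot be told apart. The labels give the cage mates of each group as HET mice of its own line, the study's methods place WT mice in the cages as well, and no more than 1 animal per sex and genotype was taken from a litter. The WT livers of 6 months carry another library numbering and were left out.

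The libraries carried one of 2 index types in their names, LB or V, and these were not spread evenly. Q140 had 5 V libraries (1 female and all 4 males) and Q20 had 1 (a female). In the females both genotypes therefore had 3 LB libraries and 1 V library, while in the males genotype and index type cannot be told apart. Summed counts per library ran from 2822580 to 6087170 in Q140 and from 3421480 to 5497040 in Q20. Mir122 and Mir192, which mark hepatocytes, were abundant in all 16 livers (Mir122 at 29980 to 40082 CPM, counts per 1000000 counts of the library). The male-biased Mir592, Mir743b and Mir881 separated the sexes as labelled in all 16. Small RNA counts carry no reading of *Htt*, so the genotypes themselves could not be checked. In a bulk liver, fewer cells of a type and less RNA per cell cannot be told apart.

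A microRNA is cut from a hairpin precursor and guides the silencing complex to messenger RNAs, mainly through its seed, bases 2 to 8 from the 5′ end. The let-7 family is made from many precursors that share one seed, accumulates as cells differentiate, and is known for restraining growth genes. miR-10b lies in the HoxD gene cluster and is best known in positional identity and in invasive tumours, while miR-21a is abundant in liver and rises in injury and fibrosis.

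Mature sequences given for precursors that were called are shown, with those of let-7g, let-7i and miR-98, whose precursors were not called. The family relations among them bear on how the counts read (RefSeq, GRCm38.p6, 5′ to 3′, seed in capitals). Of 16 names 14 were found, and those for Mir328 and Mir874 were not. The counts are per precursor and do not tell which arm of a hairpin was read.
let-7a-5p: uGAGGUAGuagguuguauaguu
let-7b-5p: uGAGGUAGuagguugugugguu
let-7c-5p: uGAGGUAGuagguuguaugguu
let-7d-5p: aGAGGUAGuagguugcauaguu
let-7f-5p: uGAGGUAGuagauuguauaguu
let-7g-5p: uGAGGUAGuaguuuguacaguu
let-7i-5p: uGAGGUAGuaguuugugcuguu
miR-98-5p: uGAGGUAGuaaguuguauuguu
miR-16-5p: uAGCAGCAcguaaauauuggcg
miR-10b-5p: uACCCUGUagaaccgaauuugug
miR-331-3p: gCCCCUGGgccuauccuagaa
miR-351-5p: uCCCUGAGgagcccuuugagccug
miR-184-3p: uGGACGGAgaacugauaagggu
miR-21a-5p: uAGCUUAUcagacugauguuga

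The first 8 belong to the let-7 family and share the seed GAGGUAG. Over their 22 bases let-7c and let-7f differ from let-7a at 1 position, let-7b, let-7d, let-7g and miR-98 at 2, and let-7i at 4. Precursors such as Mirlet7c-1 and Mirlet7c-2 give the same mature sequence, so a read can belong to either, and their counts in the files were fractional in all 16 libraries. The same held for every let-7 precursor called and for Mir16-2, whose split among copies is therefore uncertain. The 7 precursors that were lower in Q140 had whole counts in all 16 libraries.

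Of 309 precursors tested, 16 (5.18%) differed between Q140 and Q20 at an adjusted p under 0.05 by edgeR's quasi-likelihood test with sex and index type as covariates. The Q140 males were all V and the Q20 males all LB, so the males inform only the sum of genotype and index type. How that sum was divided, and so each of the 16 changes, leaned on the females. Of these, 9 were higher in Q140 (2.91%) and 7 lower (2.27%), while the median log2 change of all 309 was -0.02. The 9 that rose were Mirlet7a-1, Mirlet7a-2, Mirlet7b, Mirlet7c-1, Mirlet7c-2, Mirlet7d, Mirlet7f-2, Gm24111 and Mir16-2. The 7 that fell were Mir10b, Mir328, Mir331, Mir351, Mir184, Mir21a and Mir874. With DESeq2 there were 23 calls, 10 of them higher, and all 16 were among them. Without the index type term 4 precursors were called, of which Mir10b, Mir328 and Gm24111 were among the 16.

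**Figure D1:**
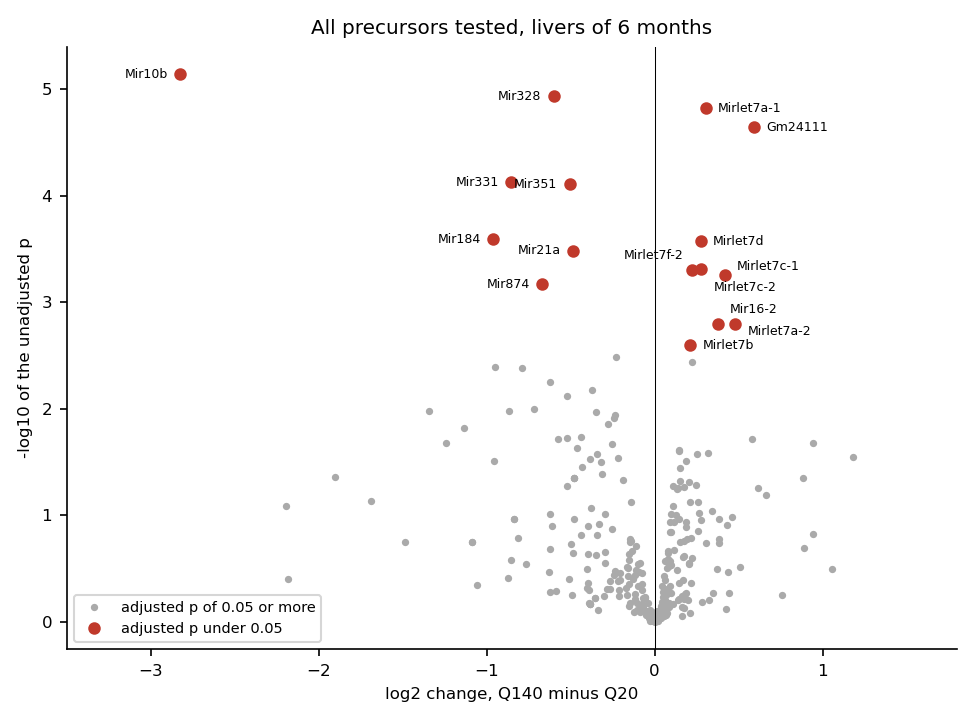
Each of the 309 precursors tested is a point, with the log2 change (Q140 minus Q20, livers of 6 months) on the x axis and -log10 of the unadjusted p on the y axis. The 16 called precursors are red and named: Mir10b stands alone at -2.82, and the called let-7 precursors lie between 0.21 and 0.48.

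Mir10b showed the largest change. It is located on chromosome 2 (74726070 to 74726137, + strand, GRCm38), in introns of *Hoxd3* and *Hoxd4*. Its level ran from 49.0 to 209 CPM in the Q140 livers (median 114), and from 150 to 1088 CPM in the Q20 livers (median 857). All 8 Q140 livers were below the Q20 median. The groups overlapped through a single Q20 male at 150 CPM, while the other 7 Q20 livers were at 759 CPM or above. The log2 change was -2.82 ± 0.43 (SE, edgeR adjusted p = 0.00156), and -2.93 without that male. In the 4 Q140 females the level was 113 ± 67.2 CPM against 912 ± 137 in the 4 Q20 females (SD), and in the males 118 ± 50.8 against 689 ± 368. Its index type coefficient was 0.07 ± 0.45 (log2, V minus LB).

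Mir10a, the HoxB-cluster relative that has the seed ACCCUGU in common with miR-10b, did not move with it (log2 change 2.12e-05 ± 0.08, adjusted p = 0.9998). Of the Hox-cluster microRNAs listed, 3 of 6 were tested and Mir10b alone was called, where 16 of all 309 were called (5.18%).

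Mir328 lies on chromosome 8 (105308364 to 105308460, - strand), opposite an exon of *Elmo3*, and is known as a binder of the protein hnRNP E2 in leukaemia. Its level was 48.4 to 71.6 CPM in Q140 (median 61.6) and 71.8 to 96.1 CPM in Q20 (median 86.6). It was the only one of the 309 precursors (0.324%) whose 8 Q140 and 8 Q20 livers did not overlap, although the nearest values lay close together. The log2 change was -0.60 ± 0.10 (adjusted p = 0.00156).

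Mir331 lies on chromosome 10 in an exon of *Vezt*. It was sparse, with 8.86 to 22.2 CPM in Q140 (median 16.8) and 20.0 to 34.1 CPM in Q20 (median 23.8), and fell by 0.85 ± 0.16 on the log2 scale (adjusted p = 0.00403). All 8 Q140 livers were below the Q20 median, and 2 Q140 males overlapped the lower Q20 males. The sparsity of Mir331, Mir184 and Mir874 limits their precision, since the lowest library held 25, 30 and 27 counts of them.

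Mir351 lies on the X chromosome (53053255 to 53053353, - strand) in the Mir322/Mir503 cluster, and its mature form carries the miR-125 seed CCCUGAG. Its level was 218 to 361 CPM in Q140 (median 332) and 325 to 516 CPM in Q20 (median 366). The 4 Q140 females (218 to 329 CPM) were all below the 4 Q20 females (350 to 516 CPM), whereas the Q140 and Q20 males were at 347 ± 10.1 and 349 ± 20.98 CPM (SD) and overlapped. The fit gave -0.50 ± 0.09 (adjusted p = 0.00403).

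Mir21a, in an exon of *Vmp1* on chromosome 11, was the most abundant of the precursors that fell. It was at 15189 to 47469 CPM in Q140 and 22093 to 45418 CPM in Q20, ranges that overlap widely because males had more of it than females. Among the females, Q140 had 18264 ± 2419 CPM and Q20 28024 ± 4433 CPM (SD, n = 4), and every Q140 female was below every Q20 female. Among the males, Q140 had 37833 ± 7101 CPM and Q20 40228 ± 4764 CPM, and the values overlapped. The log2 change in the fit of both sexes was -0.49 ± 0.11 (adjusted p = 0.0113). It was no longer called without Q20 female 4 (-0.45, adjusted p = 0.146) or without Q140 female 1 (-0.41, adjusted p = 0.0663).

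Mir184, on chromosome 9, fell by 0.96 ± 0.20 on the log2 scale (adjusted p = 0.0103), with 8.55 to 18.0 CPM in Q140 and 8.50 to 36.6 CPM in Q20. The Q140 females stood at 11.2 ± 2.28 CPM and the Q20 females at 25.3 ± 8.89, while the males of both genotypes had 14.1 ± 3.71 and 13.6 ± 4.01 CPM. Mir874, in an intron of *Klhl3* on chromosome 13, fell by 0.67 ± 0.16 (adjusted p = 0.0161), with 9.57 to 20.3 CPM in Q140 and 16.9 to 27.4 CPM in Q20. All 8 Q140 livers were below the Q20 median of Mir874. The call of Mir184 was lost without Q20 female 4 (adjusted p = 0.0946) or Q140 female 1 (0.0562), and that of Mir874 without Q140 female 1, 2 or 4 (0.0663, 0.0794 and 0.0790).

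**Figure D2:**
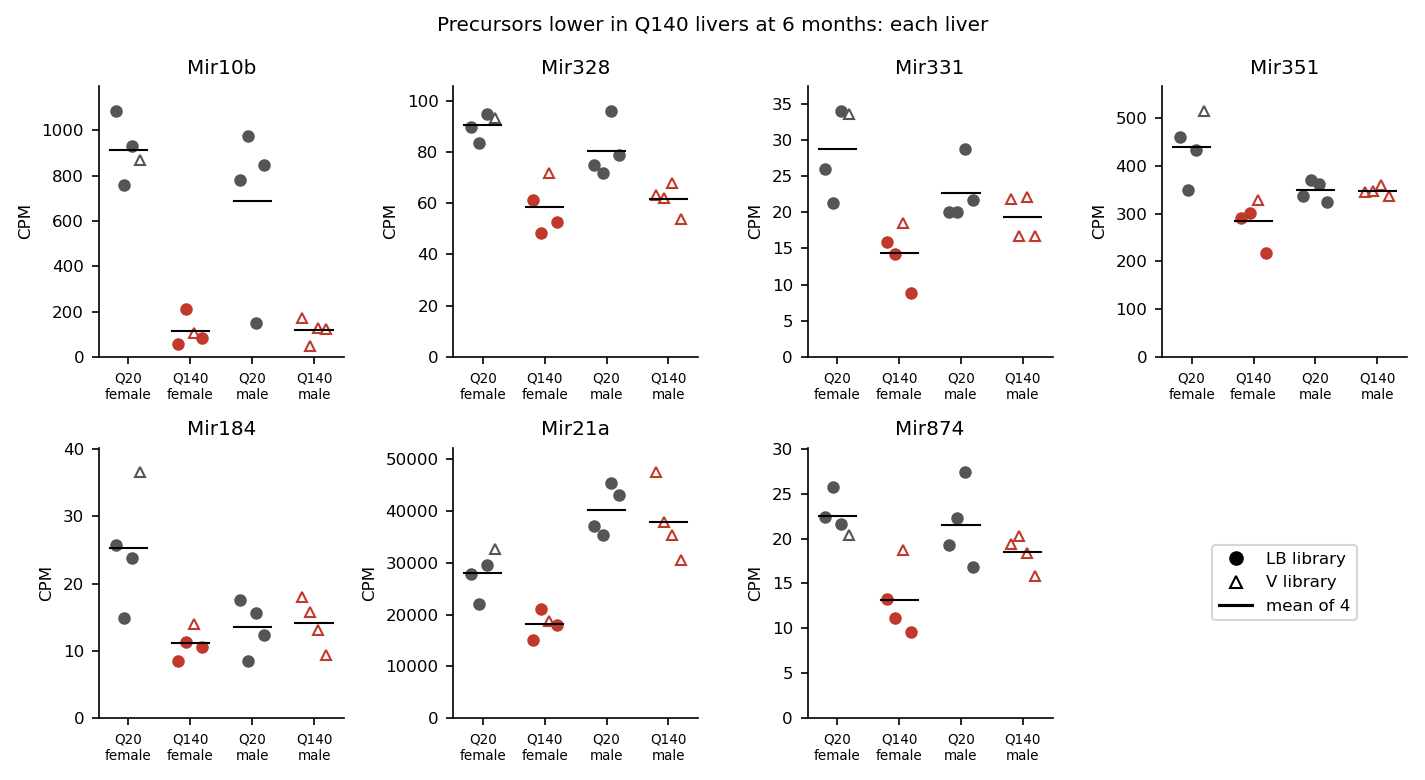
Each point is 1 liver, with CPM on the y axis and the 4 combinations of allele and sex on the x axis; circles are LB libraries, open triangles V libraries, and bars the mean of 4. In all 7 panels the Q140 females lie below the Q20 females, and among the males they do so without overlap for Mir328 only.

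Of the 10 let-7 family precursors tested, 7 were called higher in Q140, where 9 of all 309 were (2.91%). All 10 had a log2 change above 0 (median 0.25), against 143 of all 309. Copies of one sequence share reads, so the 10 are not fully separate measures. The called members were Mirlet7a-1 (0.30 ± 0.05, adjusted p = 0.00156), Mirlet7d (0.27 ± 0.06, 0.0103), Mirlet7c-2 (0.28 ± 0.06, 0.0140), Mirlet7f-2 (0.22 ± 0.05, 0.0140), Mirlet7c-1 (0.42 ± 0.10, 0.0144), Mirlet7a-2 (0.48 ± 0.13, 0.0330) and Mirlet7b (0.21 ± 0.06, 0.0492). Mirlet7g, Mirlet7i and Mir98 had values of 0.15, 0.13 and 0.17 and were not called. In fits that each left out 1 of the 16 libraries, the calls of Mirlet7a-1 and Mirlet7d held in all, those of Mirlet7c-1, Mirlet7c-2 and Mirlet7f-2 were lost in 3 each, that of Mirlet7a-2 in 7 and that of Mirlet7b in 12. Leaving out Q140 female 1 or Q140 female 4 ended all 5 of these calls, with adjusted p from 0.0522 to 0.167. With lane as the batch term Mirlet7a-1 alone of the 7 was called (0.26, adjusted p = 0.0124) and Mirlet7d was not (0.23, adjusted p = 0.0949). With no batch term none of the 7 was called, with values of 0.0935 to 0.36. With copies of one mature sequence summed, let-7a (0.34, adjusted p = 0.000317) and let-7c (0.33, adjusted p = 0.00158) were called.

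Mirlet7f-2, on the X chromosome in an intron of *Huwe1*, was the most abundant of the called members, at 23165 to 33363 CPM in Q140 (median 28844) and 24533 to 28465 CPM in Q20 (median 26431). Mirlet7a-1, on chromosome 13, was at 7437 to 10585 CPM in Q140 (median 8817) and 7312 to 8670 CPM in Q20 (median 7803). Mirlet7c-1, on chromosome 16 in an intron of *Mir99ahg*, was at 1193 to 2056 CPM in Q140 (median 1579) and 1162 to 1570 CPM in Q20 (median 1338). In each case the highest values were those of the Q140 females, and the Q140 males lay within the Q20 range or close to it.

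Summed over the 10 let-7 family precursors and Gm24111, the family made up 6.14 to 6.98% of the counts in the Q140 females (6.61 ± 0.352, SD, n = 4) and 5.31 to 5.88% in the Q20 females (5.59 ± 0.236). In the males it was 4.93 to 5.77% in Q140 (5.41 ± 0.352) and 5.02 to 5.76% in Q20 (5.28 ± 0.329). The sum does not depend on how reads were split among these 11 precursors. It separated the genotypes in the females and not in the males. In the males all Q140 libraries were V and all Q20 libraries LB, so genotype and index type cannot be told apart there.

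**Figure D3:**
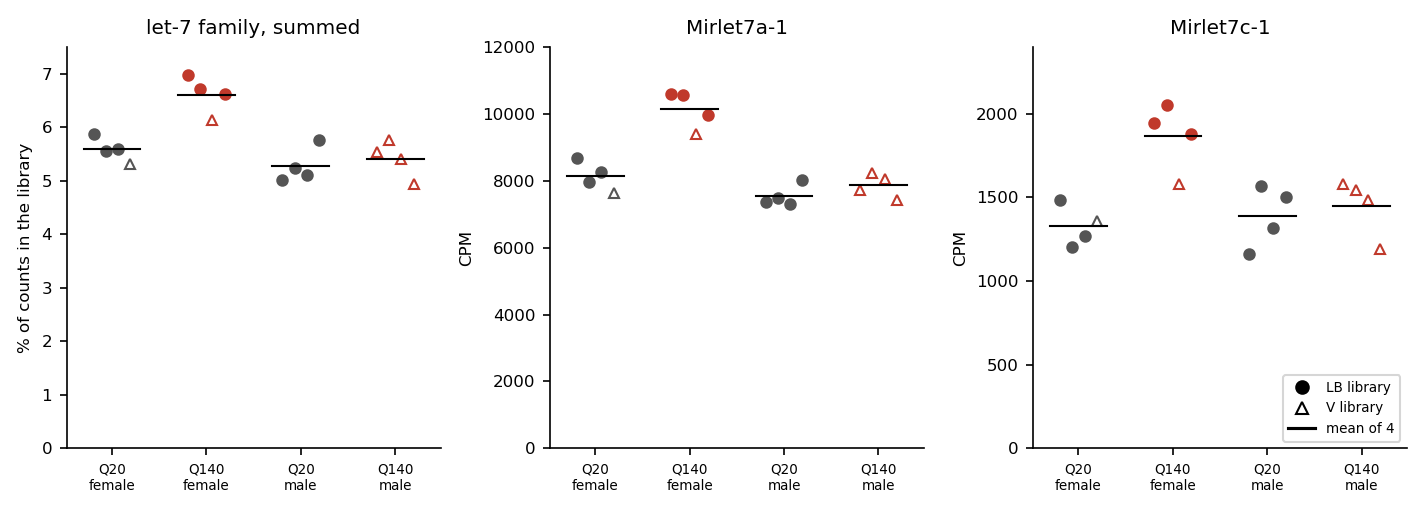
Each point is 1 liver, for the let-7 family summed (% of counts in the library) and for Mirlet7a-1 and Mirlet7c-1 (CPM); circles are LB libraries, open triangles V libraries, bars the mean of 4. The Q140 females (6.14 to 6.98% for the sum) lie above all other livers, and the V library is the lowest of the 4 Q140 females in each panel.

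Of the called precursors Gm24111 had the largest rise, from 454 to 694 CPM in Q20 (median 586.3) to 635 to 1143 CPM in Q140 (median 857). All 8 Q140 livers were above the Q20 median, and the log2 change was 0.59 ± 0.10 (adjusted p = 0.00177). This is an Ensembl name for a predicted microRNA on chromosome 13 (48537825 to 48537921, + strand) that covers Mirlet7f-1 on the opposite strand. No counts were given under the name Mirlet7f-1, so whether those of Gm24111 are reads of it could not be checked. The counts of Gm24111 were not whole in every library, so how shared reads were divided is uncertain for it as well. Mir16-2, of the miR-15/16 family that restrains the cell cycle, was at 1176 to 1997 CPM in Q140 and 1056 to 1372 CPM in Q20 (0.38 ± 0.10, adjusted p = 0.0330). Its copy Mir16-1 gives the same mature sequence and held most of the counts, with medians of 9963 CPM in Q140 and 9418 CPM in Q20, and did not differ (0.01 ± 0.08). When the copies were summed, miR-16 was not called (0.0763, adjusted p = 0.619), and leaving out 1 library ended the Mir16-2 call in 8 of 16 fits, most of all without Q140 female 4 (0.27, adjusted p = 0.167).

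Precursors within 200 kb of each other were set side by side, since neighbours are often cut from one primary transcript. On chromosome 13, Mirlet7a-1, Gm24111 and Mirlet7d lie within 2167 bases, in exons of *6720427I07Rik* or opposite them, and all were called higher. On chromosome 15, Mirlet7c-2 and Mirlet7b lie 716 bases apart in *Lncppara*, and both were called higher. Other neighbours were not called, and their difference from the called precursor was not tested. Near 0 were Mir99a next to Mirlet7c-1 (0.02 ± 0.08), Mir125b-2 near it (0.05 ± 0.09) and Mir15b 130 bases from Mir16-2 (0.08 ± 0.11). Mir98 beside Mirlet7f-2 (0.17 ± 0.08) and Mir100 and Mir125b-1 near Mirlet7a-2 (0.21 ± 0.11 and 0.19 ± 0.13) had values in the range of called let-7 precursors. The 5 neighbours of Mir351 that were tested (Mir322, Mir503, Mir542, Mir450-2 and Mir450b) had log2 changes of 0.02 to 0.14, none called, while Mir351 fell. Of the miR-15/16 family 1 of 8 tested was called, and of the Mir322/Mir351 list 1 of 5, where 16 of all 309 were called (5.18%).

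Relatives by seed were likewise compared. Of the 4 precursors tested with the miR-351 seed, Mir351 fell, Mir125a had -0.35 ± 0.12 (adjusted p = 0.123), and Mir125b-1 and Mir125b-2 were above 0. All 6 tested with the miR-16 seed AGCAGCA were above 0, with 1 call, where 143 of all 309 were above 0 and 16 were called (5.18%). The let-7 seed was also held by Mir1961, which is not a let-7 gene and had -1.13 ± 0.42 (adjusted p = 0.153). No other tested precursor had the seeds of miR-331, miR-184 or miR-21a in the RefSeq table.

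Females and males were then examined apart. In the 8 females 11 precursors were called (3.56%), all among the 16: Mir10b (-2.99), Mir328 (-0.61), Mir331 (-0.97), Mir351 (-0.60), Mir184 (-1.14), Mir21a (-0.59), Gm24111 (0.67), Mirlet7a-1 (0.34), Mirlet7c-1 (0.51), Mirlet7c-2 (0.35) and Mirlet7f-2 (0.24). Among the 16, 15 did not overlap between the Q140 and Q20 females, the exception being Mirlet7a-2, against 38 of all 309 (12.3%). As the 16 were chosen with these same livers in the fit, that count is a description.

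In the 8 males 1 precursor was called (0.324%), and it was none of the 16. This was Mir19b-1 (-8.36 ± 0.99, adjusted p = 0.0446), a copy of miR-19b at 0.0001 to 0.008 CPM in the Q140 males and 3.87 to 14.4 CPM in the Q20 males. Its counts were fractional in all 16 libraries, and the other copy, Mir19b-2, held 96.4 to 124 CPM in the same Q140 males and was not called. The part of the division of reads between these copies was not tested. Of the 16, Mir328 alone (-0.41 ± 0.12) did not overlap between the males, against 11 of all 309 (3.56%). Mir10b (-2.58 ± 0.57) and Gm24111 (0.41 ± 0.12) kept most of their change in males, while the let-7 family had a median of 0.01 in males against 0.28 in females. The fit of the females held an index type term and that of the males could not. The male values therefore hold genotype and index type together and are not like quantities to the female ones.

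The difference between the sexes was tested itself as an interaction, and 0 of 309 precursors passed (8 at an unadjusted p under 0.05). For Mirlet7a-1 the male minus female difference was -0.13 ± 0.11, for Mirlet7c-2 -0.24 ± 0.13, for Mir351 0.31 ± 0.20 and for Mir21a 0.33 ± 0.23. Because the Q140 males were all V and the Q20 males all LB, these estimates lean on the index type difference measured in the females, where each genotype had 1 V library. A sex difference in the response therefore was neither called nor separable from index type in these 16 libraries.

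Index type was examined as well. In the 16 libraries its coefficient gave 0 calls (27 at an unadjusted p under 0.05). In the fit of all 48 knock-in livers of 6 months, where each allele had its own mean, it gave 7 calls (2.27%), of which 4 were among the 16. V libraries had less Mirlet7a-1 (-0.25 ± 0.07) and Mirlet7f-2 (-0.18 ± 0.05) and more Mir351 (0.42 ± 0.07) and Mir874 (0.56 ± 0.14) than LB libraries. Each of these is opposite in sign to the Q140 change, and without the term the Q140 changes were nearer to 0 (Mirlet7a-1 0.19, Mirlet7f-2 0.12, Mir351 -0.32 and Mir874 -0.48). The V libraries included 5 of Q140, 4 of them males, and the fit held no term for genotype by sex. These coefficients therefore do not fully separate index type from a Q140 change that differs by sex.

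Values that do not rest on V libraries were also computed. In the 3 Q140 and 7 Q20 LB libraries 14 precursors were called (4.53%), 13 of them among the 16, with Mir10b at -2.93, Mir328 at -0.67 and Mirlet7a-1 at 0.38. All 3 of these Q140 libraries were female. In the LB females alone (3 and 3) 0 were called and 41 had an unadjusted p under 0.05, with all 16 in their original direction. These LB livers were among those by which the 16 were chosen, so the shared calls and directions are a description. With all 48 livers lending their index type estimate, Mir10b (-2.52 ± 0.61, adjusted p = 0.0273) and Mir328 (-0.61 ± 0.13, 0.0148) were called in the males too (2 of 309, 0.647%), against 12 (3.88%) in the females. The difference between the sexes, tested itself in that fit, gave 0 calls of 309.

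**Figure D4:**
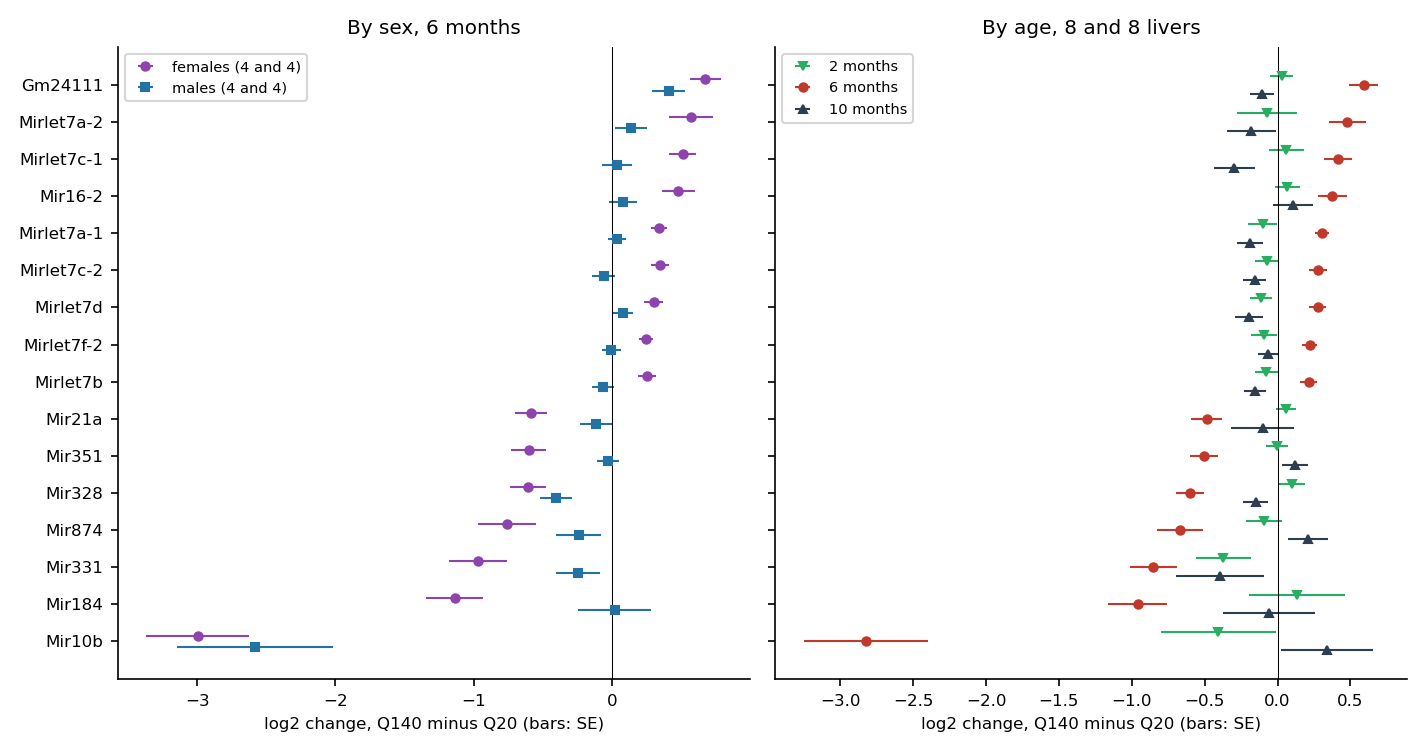
The log2 change (Q140 minus Q20, bars SE) of the 16 called precursors, in the females and males of 6 months on the left and at 2, 6 and 10 months on the right. In males the let-7 precursors sit near 0 and Mir10b stays at -2.58, and at 2 and 10 months all values lie between -0.41 and 0.34. The male values hold genotype and index type together.

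The same alleles were compared in other mice at 2 and 10 months, where lane replaced index type as covariate. By edgeR 0 of 308 precursors differed at 2 months (37 at an unadjusted p under 0.05, 5 calls by DESeq2) and 0 of 306 at 10 months (26 at an unadjusted p under 0.05, 1 call by DESeq2). The change at 6 months was then tested against the mean of the changes at the other ages. The difference itself passed for 20 of 312 precursors (6.41%), 13 of them higher at 6 months with TMM factors and 7 of 15 with RLE factors, and 11 of the 20 were among the 16. The 16 were chosen by these same 6-month livers, so that overlap and the size of their differences are a description.

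Mir10b had log2 changes of -0.41 ± 0.39 at 2 months and 0.34 ± 0.31 at 10 months, and the 6-month change differed from their mean by -2.68 ± 0.51 (adjusted p = 0.00107). Mirlet7a-1 was at -0.10 ± 0.10 and -0.19 ± 0.09, a difference of 0.55 ± 0.11 (adjusted p = 0.00121), and Gm24111 at 0.03 ± 0.08 and -0.11 ± 0.08, a difference of 0.73 ± 0.11 (adjusted p = 5.19e-05). All 7 let-7 precursors called at 6 months were below 0 at 10 months, from -0.30 to -0.07. Mir331 kept its direction at both ages (-0.37 ± 0.19 and -0.39 ± 0.30), with a difference that was not called. The differences of Mir184, Mir21a, Mirlet7a-2 and Mir16-2 were not called either. Age here goes with other mice, other libraries and another batch structure, and these cannot be told apart.

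The other expanded alleles of 6 months were set against the same 8 Q20 libraries, so all these comparisons share their controls. In fits of the same design, 1 per allele, 22 of 309 precursors were called for Q80 (7.12%), 34 for Q92 (11%), 0 for Q111 (0%) and 41 for Q175 (13.3%). Mirlet7a-1 had log2 changes of 0.13 in Q80, 0.32 in Q92, 0.26 in Q111 and 0.32 in Q175, beside 0.30 in Q140. Mir351 had -0.55, -0.64, -0.14 and -0.52, and Mir328 had -0.27, -0.52, -0.14 and -0.45. Mir10b stood apart, with 0.11 in Q80, -0.01 in Q92, 0.56 in Q111 and -0.32 in Q175, none of them called.

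To free the comparison of the Q20 libraries, the 8 Q140 livers were set against the mean of the 32 livers of Q80, Q92, Q111 and Q175, a choice made after the other values were seen. By edgeR 7 of 309 precursors were called (2.27%). Mir10b was again far lower in Q140 (-2.87 ± 0.34, adjusted p = 1.22e-07) and was called in all 8 fits that left out 1 Q140 liver, without the index type term and without the filter on low counts. Mir328 was also lower (-0.32 ± 0.07, adjusted p = 0.00653), but its call was lost without the index type term (-0.18, adjusted p = 0.266), without the filter on low counts, and in 3 of the 8 leave-out fits. The others were Mir155, an immune microRNA (1.254 ± 0.27, adjusted p = 0.00653), Mir214 (0.36), Mir378b (-0.34), Mir345 (-0.35) and Gm25301 (-0.16). Of these, Mir378b was called in 8 of the 8 leave-out fits, Mir155 in 7 and Mir214 in 5, while Mir345 and Gm25301 were called in 1 each and lost with RLE factors, without the index type term and without the filter on low counts. Without the filter Mir10b and Mir155 alone remained called.

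None of the called let-7 precursors was called between Q140 and the other expanded alleles. The estimates were 0.05 ± 0.07 for Mirlet7a-1, 0.01 ± 0.07 for Mirlet7d, -0.0021 ± 0.07 for Mirlet7c-2, 0.01 ± 0.06 for Mirlet7f-2, 0.01 ± 0.09 for Mirlet7c-1, -0.03 ± 0.06 for Mirlet7b and -0.21 ± 0.13 for Mirlet7a-2. Gm24111 (-0.14 ± 0.12), Mir351 (-0.07 ± 0.08) and Mir184 (-0.09 ± 0.16) were likewise not called. Of the 16, Mir10b and Mir328 thus were the ones called against both Q20 and the other expanded alleles. Both comparisons used the same 8 Q140 libraries, 5 of them V, so they are not independent of each other.

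In CPM, the 8 Q140 livers at 6 months (49.0 to 209) were below every liver of Q80 (438 to 1057), Q92 (483 to 1316), Q111 (266 to 2393) and Q175 (391.6 to 982) of that age for Mir10b. Q175 arose from the Q140 line by spontaneous expansion of its repeat. At 2 months Mir10b ran from 201 to 2557 CPM in Q140 and at 10 months from 139 to 1901 CPM. The WT livers of 6 months, left out of the tests, were at 1516 to 4418 CPM. The level varied widely in other groups as well, and the widest was Q92 at 10 months, from 178 to 11710 CPM. Medians at 2 months were lower in Q175 (259.8 CPM) and Q92 (433.4) than in Q20 (771.4). Those of Q80 (1247), Q111 (925.4) and Q140 (832.3) were higher. At 10 months Q80 (350.7), Q92 (679.3) and Q175 (719.1) were below Q20 (778.2), and Q111 (1518) and Q140 (1147) above it. Q175 at 2 months (176.8 to 518.1 CPM) overlapped the range of Q140 at 6 months.

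**Figure D5:**
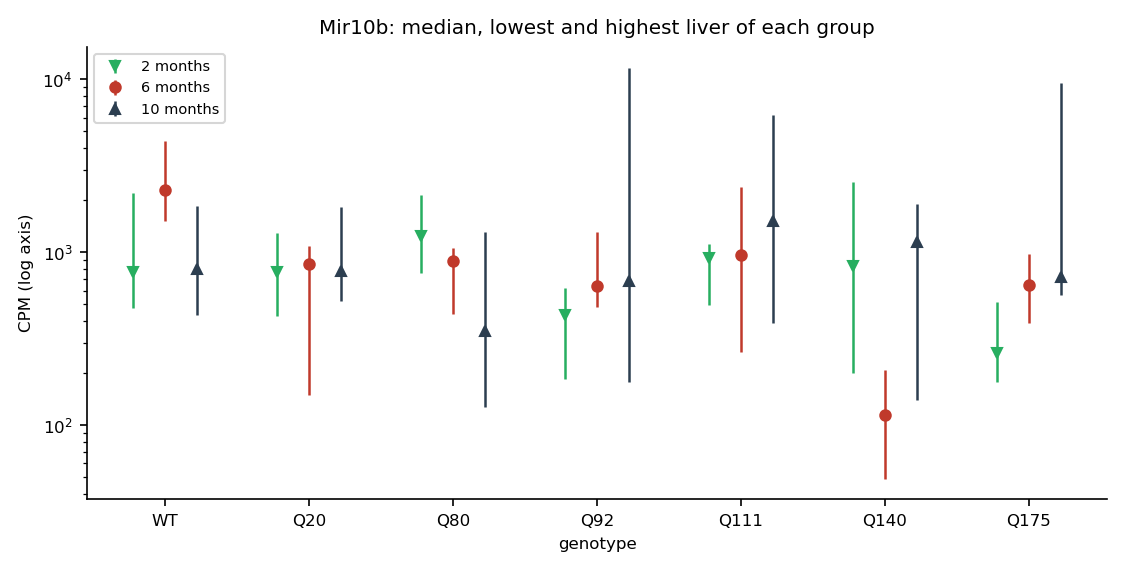
Mir10b in every genotype and age: the marker is the median of the group's livers, the line runs from the lowest to the highest liver, and the y axis is CPM on a log scale. The Q140 livers of 6 months (median 114 CPM) have the lowest median and lie below all other 6-month groups except for 1 Q20 liver at 150 CPM.

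Mir155, chosen for mention by its call against the other alleles, was at 10.8 to 80.7 CPM in Q140 and 7.05 to 20.4 CPM in Q20. Its mean leaned on 2 Q140 livers, a female at 58.1 CPM and a male at 80.7 CPM. In the fit of Q140 and Q20 livers alone, the leukocyte list to which it belongs had 0 of 10 tested members called. The median log2 change of the list was -0.02, and its summed level was 6411 to 9278 CPM in Q140 and 6101 to 11115 CPM in Q20. With all 48 livers in the edgeR fit, Mir155 (1.26 ± 0.32, adjusted p = 0.0108) and Mir223 of this list (-0.43 ± 0.11, 0.0120) were called against Q20, in opposite directions. Mir223 was also called in the females of the 48-liver fit by sex (-0.54 ± 0.15, adjusted p = 0.0261).

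Marker microRNAs of the cell types a liver sample can hold were counted beside these results. None of the 3 erythroid, 10 leukocyte, 1 endothelial, 6 stellate and smooth muscle, 10 biliary and other epithelial, 9 neuronal, 1 muscle and 1 pancreatic precursors tested was called, where 5.18% of all 309 were called and 143 of them were above 0. The stellate and smooth muscle list (Mir143, Mir145, Mir199 and Mir214 genes) had all 6 members above 0, a median of 0.27, and summed levels of 34729 to 55537 CPM in Q140 and 31990 to 52211 CPM in Q20. The epithelial list had 8 of 10 above 0, a median of 0.26, and summed levels of 2728 to 5180 CPM in Q140 and 2244 to 4014 CPM in Q20. Its medians by sex were 0.26 in females and 0.06 in males, and those of the stellate list 0.42 and 0.09. Other lists went either way, such as the endothelial (0.15 and 0.02) and the leukocyte (-0.18 and 0.12). The male values hold genotype and index type together and are not like quantities to the female ones. The part of stellate, smooth muscle or epithelial cells in the let-7 values was not tested.

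The hepatocyte and abundant liver list had 1 of 20 members called, Mir21a, about the share among all precursors (5.18%), and a median of 0.07. The 5 precursors with the most counts were Mir192, Mir22, Mir148a, Mir26a-2 and Mir30a, and none was called. Mir192 took 21.1% of the counts in Q140 and 22.6% in Q20, with a log2 change of -0.14 ± 0.07. The miR-30, miR-26 and miR-29 families and the miR-17-92 group had 0 members called of 6, 3, 4 and 12 tested, and the X-linked cluster that holds Mir743b and the Dlk1-Dio3 locus had 0 of 11 and 0 of 10. The miR-23/27/24 clusters had 0 of 5 called and a median of -0.15.

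Closest to the threshold without passing were Mir27b (-0.23 ± 0.07, adjusted p = 0.0597), Mir148b (0.22 ± 0.07, 0.0630) and Gm26117 (-0.95 ± 0.28, 0.0636). Mir27b, a regulator of lipid genes in liver, was at 15092 to 19541 CPM in Q140 and 18548 to 22520 CPM in Q20, with all 8 Q140 livers below the Q20 median. Mir148b was above the Q20 median in all 8 Q140 livers, at 1118 to 1290 CPM against 972 to 1136 CPM.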

How the data were processed

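Total RNA was taken from frozen livers and small RNA libraries were sequenced. Per the study's methods, clipped strand-specific reads were aligned to mm10 with STAR and counted with HTSeq, and CASAVA 1.8.2 is named in the submitters' processing notes. The deposited table holds estimated counts for 1626 precursor transcripts by Ensembl identifier. Of the values above 0 in the 16 libraries 53.6% were whole (within 0.0005), so reads that fit several precursors appear to have been shared out, although how is not given in the sources used here. Sharing splits one microRNA's reads among its copies and can move a copy when their sum does not move. A table of FPKM made by the authors was not used.

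The estimated counts were rounded. A precursor was tested with at least 10 counts in at least 7 of the 48 knock-in livers of 6 months. edgeR 4.0.16 (R 4.3.3) was run with TMM factors, the quasi-likelihood F test and Benjamini-Hochberg adjustment over all precursors tested, with sex and index type (LB or V) as covariates. CPM is the estimated count per 1000000 counts of the library, without TMM factors, and SE was obtained from the log2 change and its F value. DESeq2 1.42.0 was an alternative. In the V libraries the number after L repeats the index number, so it was not read as a lane. The study's methods name Q20 and WT samples as controls and give WT livers at 2 and 10 months, while the labels also hold WT livers of 6 months, which were left out here. Names and positions were taken from GENCODE M21 (GRCm38, 1228 of 1626 identifiers matched), sequences from RefSeq. The fits were tested on simulated data, in which small changes and most changes that differed between the sexes were not called, so a count of 0 in the test of genotype by sex does not show that the sexes responded alike.

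The precursors named are those called, the 5 with the most counts and the 3 nearest the threshold, with seed relatives, copies and neighbours. The members, lists and tests were chosen with earlier results of these data known. Same-numbered Q140 and Q20 livers did not deviate together (correlations of -0.263 to 0.0848 over 8 pairs), so the numbers were not taken as pairs. Replicates are separate animals, and no pair of libraries of a group agreed within sampling noise.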

Additional observations from a re-analysis of the deposited data

Results flagged for a closer look

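In 48 tests of the named precursors for a single liver standing apart within a group of 8, of which chance gives about 1 in 20, 2 were met. The Q20 male 3 had 150 CPM of Mir10b against 759 to 1088 CPM in the other 7 Q20 livers. The Q20 male 2 had 184805 CPM of Mir192 against 218138 to 242681 CPM in the others.

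The Q140 change at 6 months differed from the mean change at 2 and 10 months, by edgeR's test of the difference itself, for 13 of the named precursors. It was more positive at 6 months for Gm24111 (0.73), Mirlet7c-1 (0.63), Mirlet7a-1 (0.55), Mirlet7d (0.53), Mirlet7c-2 (0.49), Mirlet7b (0.42), Mirlet7f-2 (0.40), Mir148b (0.32) and Mir22 (0.27), on the log2 scale. It was more negative for Mir10b (-2.68), Mir874 (-0.65), Mir328 (-0.49) and Mir351 (-0.47). Neither Mir22 nor Mir148b was called at 6 months by itself. The others were called there, and so were chosen by the same 6-month livers that enter this difference.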

How the results depend on the processing

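The count of calls at 6 months was 16. It fell to 8 with lane as the batch, to 4 without a batch term, to 1 in the males alone, and to 0 in the LB females and in lanes L7 and L8 alone (the last chosen after seeing the data, 21 at an unadjusted p under 0.05). Leaving out 1 library gave 9 to 18 calls, with 9 without Q140 female 1 and 9 without Q140 female 4. Mir10b, Mir328, Mirlet7a-1, Gm24111, Mir331, Mir351 and Mirlet7d were called in all 16 of these fits. In the males alone 12 of the 16 kept their direction. Mir184 (0.0171), Mirlet7c-2 (-0.0614), Mirlet7f-2 (-0.0064) and Mirlet7b (-0.0678) had the other sign but lay near 0, which shows no reversal. Genotype and index type cannot be told apart in that fit. RLE factors, DESeq2, robust dispersion, copies summed, another or no filter on low counts, all 48 livers and the LB libraries gave 14 to 23 calls and the females 11, and the 16 kept their direction in each. With all 48 livers 6 of 20 calls were higher in Q140, against 9 of 16.

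With the sex and replicate number as a replicate block there were 11 calls, 10 of them among the 16; the numbers were not shown to pair the livers. The test of genotype by sex gave 13 calls without the filter on low counts, and 0 otherwise. Index type gave 7 calls in the fit of 48 livers. Without the filter on low counts, 2 months gave 26 calls and 10 months 8, and by DESeq2 they gave 5 and 1. The difference between ages gave 9 calls without a batch term. Against the other expanded alleles there were 7 calls, 4 without a batch term, 2 without the filter, and 2 to 8 when 1 Q140 liver was left out (2 without female 2, 3 without male 4, 4 without female 4 or male 3). The cause of these shifts was not tested.

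Precision was limited by 8 livers per allele and by index type. Sparse precursors such as Mir184 and Mir331 rest on few counts per library, and counts of let-7 copies depend on how shared reads were divided.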
